A study of Mus musculus with 47 samples.

Results

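The genes described here are *Trp53*, which encodes the transcription factor p53, and its listed target genes *Cdkn1a*, *Mdm2*, *Ccng1*, *Trp53inp1*, *Zmat3*, *Bax*, *Sesn2*, *Aen* and *Rrm2b*. They were chosen by name, and a gene was kept when it had a row in the table of allelic counts. Of the 10 listed genes, 9 are in that table of 13947 genes. *Mdm2*, the ubiquitin ligase that binds p53 and marks it for destruction, was not analysed here. Of the 13515 autosomal genes, 4033 had a mean of at least 5 allelic counts per cell and form the background for every fold given below. Among the 9 members, 8 passed this filter, and *Rrm2b*, with 61 counts in 15 cells, did not.

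The 47 samples are single mouse induced pluripotent stem cells (iPSCs), each measured once by full-length single-cell RNA-seq on 1 plate. They were reprogrammed by lentiviral overexpression of OSKM from embryonic fibroblasts of a cross between a *Mus* mother with an X-linked eGFP transgene and a *Cast* father, and per the labels they were grown in mouse embryonic stem cell medium with FBS, LIF and ascorbic acid, whereas the study's methods describe control iPSCs as passaged without ascorbic acid. Each cell was sorted into a GpC methylase reaction before its mRNA was captured on oligo-dT beads. A count is an observation of a strain-specific SNP in a gene, assigned to the *Mus* or the *Cast* allele, and all levels are counts of both alleles per 10000 allelic counts of the cell. By the alleles of their X-linked genes, 23 cells kept both X chromosomes (X-Mus X-Cast, called XX cells below). A further 15 cells expressed the *Cast* X chromosome only (X-Cast O-Mus, called XO-Cast cells), and 9 cells the *Mus* X chromosome only (the class X-Mus O-Cast, called XO-Mus cells). None of the 9 members is X-linked.

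Each cell held 71682 to 216451 allelic counts, with a median of 167041, and the XO-Mus cell in well E04 was the only cell under 100000. All 8 pluripotency markers examined, *Pou5f1* and *Nanog* among them, were detected, and their summed level ranged from 17.4 to 66.2. The labels name no separate cultures, animals or clones, so the cells of a class count as 1 sample, no test between classes was possible, and no p-value is given. Intervals are exact 95% Poisson or Clopper-Pearson intervals, and they cover counting error only. They are too narrow as a statement about molecules, because the libraries carried no molecular identifiers and a read across several SNPs can be counted at each of them. The number of informative SNPs per gene was not known here, so levels are compared between cells and never between genes.

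p53 is a stress-responsive transcription factor that is kept low by MDM2-driven degradation and is stabilised after DNA damage, oncogene activity or ribosomal stress. Most of this control acts on the protein and not on the mRNA of *Trp53*. Once active, p53 binds a paired decamer with the core CATG and raises genes for cell cycle arrest, apoptosis, DNA repair and metabolic adjustment, and in reprogramming it is known as a barrier that removes damaged or aneuploid cells.

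*Cdkn1a* encodes p21, the inhibitor of cyclin-dependent kinases through which p53 halts the cell cycle, and its promoter shows what a p53 binding element looks like. RefSeq promoter windows (GRCm38.p6, 250 bases before to 50 bases after a start, reference strain sequence) were given for 6 of the 9 members, in 8 windows. *Trp53inp1*, *Zmat3* and *Rrm2b* have no entry. Both windows of *Cdkn1a* and the window of *Bax* are printed 5′ to 3′, because *Bax* had the level most like that of *Cdkn1a* across cells. Capitals mark the p53 response element in the upstream window and the motif GGGCGG or its reverse complement in the other windows.
Cdkn1a upstream start, chr17:29090729-29091028, + strand: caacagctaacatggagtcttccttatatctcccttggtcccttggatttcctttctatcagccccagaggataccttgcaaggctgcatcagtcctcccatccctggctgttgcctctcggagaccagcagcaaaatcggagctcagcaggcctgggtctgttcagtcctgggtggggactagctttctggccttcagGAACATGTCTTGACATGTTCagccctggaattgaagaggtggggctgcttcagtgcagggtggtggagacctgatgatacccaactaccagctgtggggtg
Cdkn1a downstream start, chr17:29093519-29093818, + strand: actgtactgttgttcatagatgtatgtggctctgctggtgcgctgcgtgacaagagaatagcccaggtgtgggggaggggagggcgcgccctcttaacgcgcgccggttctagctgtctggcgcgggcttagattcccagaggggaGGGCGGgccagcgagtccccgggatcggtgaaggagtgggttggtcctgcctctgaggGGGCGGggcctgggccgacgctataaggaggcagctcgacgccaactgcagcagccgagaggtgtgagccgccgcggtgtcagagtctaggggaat
Bax, chr7:45466849-45467148, - strand: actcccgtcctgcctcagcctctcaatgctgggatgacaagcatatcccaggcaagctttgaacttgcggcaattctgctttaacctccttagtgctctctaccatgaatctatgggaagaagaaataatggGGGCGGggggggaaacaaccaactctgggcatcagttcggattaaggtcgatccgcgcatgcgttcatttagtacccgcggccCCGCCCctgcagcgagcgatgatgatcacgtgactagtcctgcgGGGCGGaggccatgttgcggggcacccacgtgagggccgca
The element in the upstream *Cdkn1a* window lies at chr17:29090928-29090947, from position -51 relative to the start, and has 1 mismatch to the consensus. The search used the p53 consensus of a pair of adjoining decamers with no spacer. In each decamer the core, a C, 2 bases of A or T and a G, had to be intact. This search allowed at most 2 mismatches outside the cores. It found an element in 52 of 32851 windows (0.158%), and in no window of the other members. GGGCGG, the GC box that Sp1-family factors can bind, was found on either strand in 35.7% of all windows. A match is a description of letters in a window, and the windows of the other members say nothing of elements elsewhere, such as in introns.

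*Trp53* itself, on chromosome 11 (chr11:69580359-69591873, GRCm38, + strand, GENCODE M21), was detected in 47 of 47 cells. Its level was lowest in well E04 at 0.558, had a median of 3.61, and was highest in well D02 at 6.54. The value in E04 rested on 4 counts in the shallowest cell. *Trp53* varied little beside the tested genes. Its coefficient of variation over cells was 0.317, and 97.5% of the tested genes had a higher one, with a median of 0.940. This measure depends on a gene's counts, and the tested genes were not matched for counts, here or below. The tested genes start at a mean of 5 counts per cell, and that of *Trp53* was 59.9. The XX cells had a median of 3.64 (range 1.55 to 6.18), the XO-Cast cells 3.61 (2.28 to 5.39) and the XO-Mus cells 3.57 (0.558 to 6.54). All 3 classes overlapped from 2.28 to 5.39. The mean level in XO-Cast cells was 1.04 times that in XX cells, with a counting interval of 0.957 to 1.13 for the ratio of pooled levels. In XO-Mus cells it was 0.980 times (0.928 to 1.14).

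*Cdkn1a* (chr17:29090976-29100727, + strand) spread far more widely. It was detected in 46 of 47 cells, from 0 to 23.7 with a median of 5.82 and a coefficient of variation of 0.845, near the middle of all tested genes (58.4% had a higher one). The highest cells were B04 (23.7), B03 (23.7) and C06 (21.5), which belong to 3 different X classes. The median was 7.46 in XX cells (range 0.253 to 23.7), 5.29 in XO-Cast cells (0 to 23.7) and 4.32 in XO-Mus cells (2.14 to 21.5). Both single-X classes thus had lower medians, but all 3 classes overlapped from 2.14 to 21.5. The ratio of means to the XX cells was 0.704 in XO-Cast cells and 0.769 in XO-Mus cells. The XO-Cast ratio depended on well B04, which held 29.3% of that class's counts, and was 0.618 once the highest cell of each class was left out. A gene on the opposite strand, AC167363.2, overlaps *Cdkn1a*, and the counting is not stated to use strand, so reads of the 2 genes cannot be told apart. The annotation also has genes that overlap *Bax* (Gm45808, same strand), *Sesn2* (Gm12981, same strand) and *Rrm2b* (Gm3362, same strand, and Gm49085, opposite strand), and how reads shared with them were counted was not stated.

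The level of *Cdkn1a* also differed between plate rows. Its median was 17.2 in plate row H and 2.34 in row B, against 2.95 to 4.48 over the 8 rows for *Trp53*. Within rows, which hold 1 to 5 XX cells each, the median of the XX cells was above that of the single-X cells in 5 of 8 rows and below it in 3. It was above in 3 rows and below in 5 for *Sesn2*, 6 and 2 for *Bax*, and 4 and 4 for *Trp53*. The part of plate position in the class ratios was not tested.

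*Ccng1*, the cyclin G1 gene, whose product is a feedback partner of MDM2, was detected in 45 cells with a median of 1.21 and a highest value of 4.21. Its class ratios were 0.887 in XO-Cast cells and 0.861 in XO-Mus cells, and its medians were 1.34, 1.10 and 0.831 in the 3 classes in the order XX, XO-Cast, XO-Mus. *Sesn2*, which encodes sestrin 2, a restraint on mTORC1 signalling under stress, was detected in 33 cells with a median of 0.647 and a highest value of 5.44. It was higher in the means of both single-X classes: the median was 0.345 in XX cells, 0.915 in XO-Cast cells and 1.40 in XO-Mus cells. The ratios of means were 1.79 (counting interval of the pooled ratio 1.66 to 2.27) and 1.92 (1.76 to 2.50). Only 2 XO-Cast cells and 1 XO-Mus cell exceeded the highest XX cell, and the classes overlapped from 0 to 3.87. Without wells B01, B04, C01 and G04 the ratios were 1.43 and 2.14.

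*Zmat3*, an RNA-binding zinc finger protein that acts in splicing and growth control, was detected in 32 cells, and its ratios changed with which cells were kept. It was detected in 13 of 23 XX cells, 13 of 15 XO-Cast cells and 6 of 9 XO-Mus cells. The ratio of means was 1.93 in XO-Cast cells, where well A03 (6.41) held 52.8% of the class's counts, and it was 1.24 without the highest cell of each class, while the class medians were 0.424 and 0.130. In XO-Mus cells the ratio was 1.36, and it was 1.20 without the highest cells and 0.654 without wells B01, B04, C01 and G04. *Trp53inp1*, a nuclear cofactor of p53 linked to autophagy, was detected in 22 cells, namely 13 of 23, 4 of 15 and 5 of 9 in the same order, and 3 of 15 XO-Cast cells (20.0%, 4.33 to 48.1%) after thinning each cell to 100000 counts. *Rrm2b*, the p53-inducible ribonucleotide reductase subunit that supplies nucleotides for repair, was detected in 7, 7 and 1 cells of the 3 classes, and never above 0.612.

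Of the members with roles in apoptosis, *Bax* was nearly as even as *Trp53*. *Bax* encodes the pore-forming protein of the mitochondrial outer membrane. It was detected in all 47 cells, from 4.42 to 18.3 with a median of 9.59 and a coefficient of variation of 0.369, and 95.7% of tested genes had a higher one. Its class medians were 9.78, 6.87 and 10.3, but the ratios of means were 0.929 in XO-Cast cells and 1.02 in XO-Mus cells. *Aen*, a nuclease induced during apoptosis, was detected in 44 cells with a median of 1.27. Its ratio of means was 0.932 in XO-Cast cells and 1.49 in XO-Mus cells. The first ratio fell to 0.690 without the 4 wells, since B04 held 37.7% of the class's *Aen* counts, and the latter rose to 1.78. In XO-Mus cells 3 of 9 lay above the highest XX cell (3.70), while the medians were 1.34 and 1.33.

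**Figure D1:**
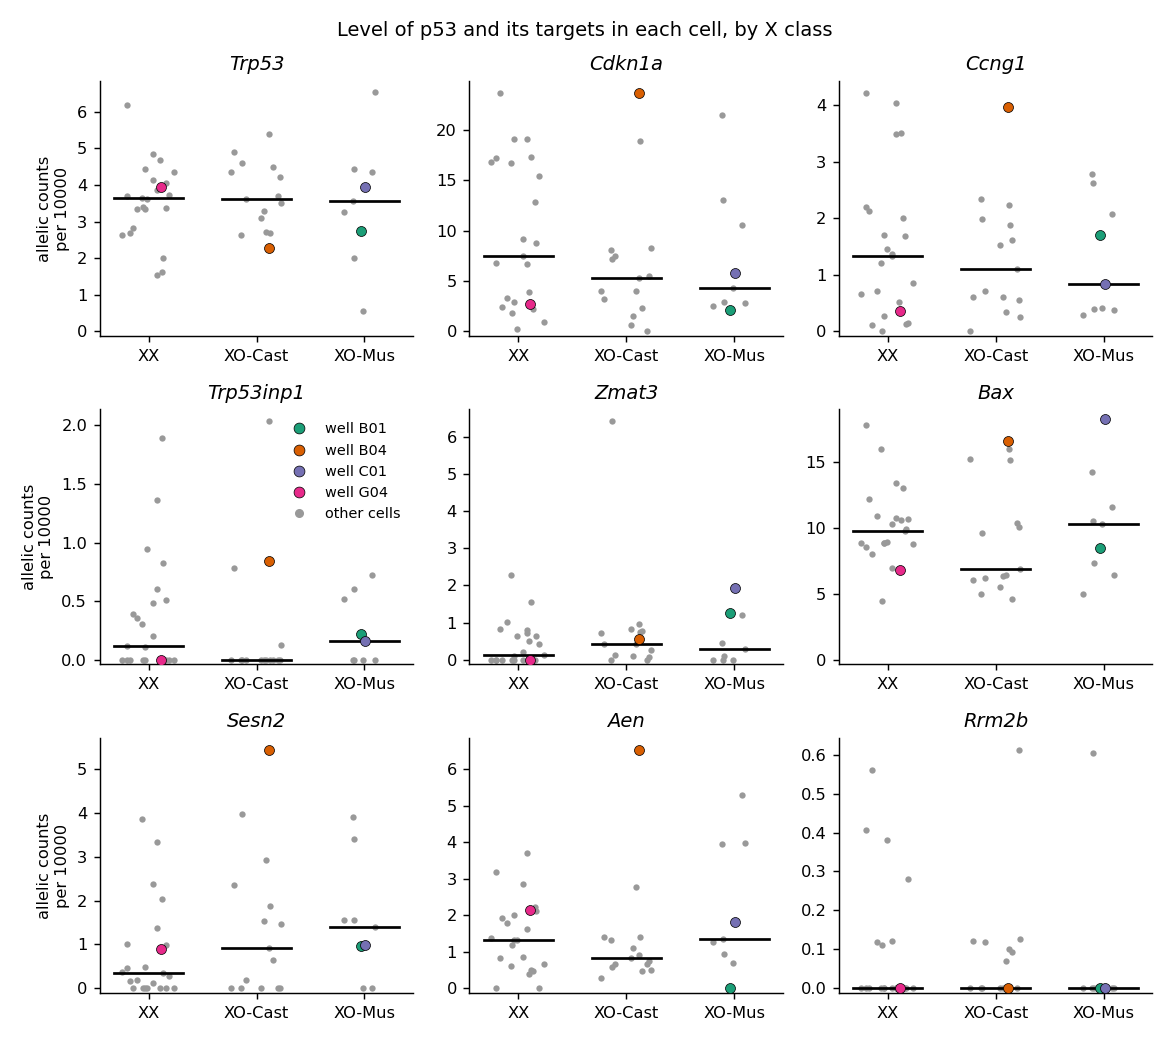
Level of each member in each of the 47 cells (y axis, allelic counts per 10000, linear and different in each panel), with the cells grouped by X class on the x axis and the class median as a black line. Wells B01, B04, C01 and G04 are coloured, and B04 is the highest cell of all for *Cdkn1a* (23.7), *Sesn2* (5.44) and *Aen* (6.53).

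Counted over the members, no ratio of means between X classes reached 2-fold. In XO-Cast cells 0 of 8 members were at least 2-fold higher and 0 were at least 2-fold lower than in XX cells, where 6.97% and 5.21% of the 4033 tested genes were. In XO-Mus cells the counts were again 0 and 0, beside 9.03% and 9.27% of all tested genes. At 1.5-fold, *Zmat3* and *Sesn2* were higher in XO-Cast cells (2 of 8 members, 16.6% of all genes) and *Sesn2* alone was higher in XO-Mus cells (1 of 8, 19.4%), and 0 members were 1.5-fold lower in either (13.3% and 18% of all genes). By medians over cells in place of means, 2 members (*Zmat3* and *Sesn2*) were at least 2-fold higher in each single-X class, beside 8.3% of 3736 genes in XO-Cast cells and 10% in XO-Mus cells. By the same measure *Trp53inp1* alone was at least 2-fold lower in XO-Cast cells, with a median of 0 against 0.116, and 0 members were lower in XO-Mus cells, beside 17.2% and 21.1% of the genes. The median log2 ratio of the members was -0.10 in XO-Cast cells and 0.00 in XO-Mus cells, and that of all tested genes was 0.03 and 0.04. At such shares a list of 8 genes holds 0 to 2 genes past the 2-fold limit in a direction, so these counts are not a result about the members. The 8 targets in the table (all members but *Trp53*) summed to a median of 22.1 per 10000 in XX cells (7.55 to 43.9), 16.9 in XO-Cast cells (9.24 to 57.6) and 15.8 in XO-Mus cells (11.1 to 46.8). *Cdkn1a* and *Bax* made up a median of 78.2% of this sum in a cell, and up to 95.9%. The sum, here and below, thus mostly describes these 2 genes.

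Markers and library measures also differed between the classes. Of 9 listed fibroblast markers 8 are in the table, and their summed level had a median of 1.64 in XX cells (0 to 3.77), 3.43 in XO-Cast cells (0 to 9.14) and 3.07 in XO-Mus cells (0.311 to 4.504), with *Col1a2* and *Postn* at 0 in every cell. The summed pluripotency markers had medians of 45.9, 42.4 and 36.9 in the same order, and the mitochondrial share of counts 22.9%, 22.9% and 18.4%. Over the 47 cells the fibroblast sum had a rho of -0.32 with the summed targets. Their part in the class ratios was not tested.

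Other genes of the pathway were counted in the same way. Of 16 listed regulators of p53, 14 are in the table and 7 passed the filter. Among these 7, 0 were 2-fold higher and 1 was 2-fold lower in XO-Cast cells, and 0 were higher and 2 lower in XO-Mus cells. The shares over all tested genes were 6.97% higher and 5.21% lower in XO-Cast cells, and 9.03% and 9.27% in XO-Mus cells. The regulators' median log2 ratio was 0.23 and -0.83. The latter was the ratio of *Atm* in XO-Mus cells, which was -3.15 without well E04. The lower genes were the checkpoint kinase genes *Chek2* (-1.24 in XO-Cast, -1.08 in XO-Mus) and *Chek1* (-1.36 in XO-Mus cells). Of 40 further listed targets, 37 are in the table and 18 passed the filter. Among these 18, 1 was 2-fold higher and 3 were lower in XO-Cast cells, and 1 was higher and 2 lower in XO-Mus cells, beside the same shares over all genes. Their median log2 ratio was -0.18 and 0.03.

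The highest log2 ratios among these regulators and targets in XO-Cast cells were those of the kinase gene *Dyrk3* (1.05), *Tigar* (0.82), a fructose bisphosphatase, and the death receptor gene *Tnfrsf10b* (0.68). The lowest were those of *Ndrg1* (-3.07), the phosphatase subunit gene *Ppp1r15a* (-1.38) and *Chek2*. In XO-Mus cells the highest were *Tnfrsf10b* (1.24), *Pml* (0.85), which builds nuclear bodies, and *Ckap2* (0.72), a mitotic spindle gene. The lowest there were *Ndrg1* (-1.97), the antiproliferative gene *Btg2* (-1.41) and *Chek1*. *Ndrg1* was detected in only 13 cells and *Tnfrsf10b* in 18, so both ratios rest on few cells. Several of these ratios changed with 1 cell. That of *Ndrg1* was -7.62 without A02 in XO-Cast cells, and in XO-Mus cells it was -2.95 without G02 and -2.66 without D01. That of *Dyrk3* in XO-Cast cells was 0.93 without B04 and 0.82 without E06, so that it then missed the 2-fold limit. That of *Tnfrsf10b* in XO-Mus cells was 0.12 without C06, that of *Pml* 0.11 without B01, and that of *Btg2* -4.65 without D01 and -0.86 without the XX cell in G03. That of *Chek2* in XO-Mus cells was -2.28 without C01 and -0.89 without the XX cell in E03. With each cell left out in turn, 0 to 2 of the 18 further targets were 2-fold higher in either class, and 2 to 4 were lower in XO-Cast cells and 1 to 3 in XO-Mus cells. Of the 7 regulators, 0 were then higher in either class, and 1 was lower in XO-Cast cells and 1 to 3 in XO-Mus cells.

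Wells B01, B04, C01 and G04 were picked out from their counts per chromosome in these data, and their chromosome values are therefore given as a description. In all 4 wells chromosome 1 took 0.618 to 0.708 times its median share of autosomal counts, where the other 43 cells had 0.831 to 1.18, and its *Mus* share was 43.96 to 47.7% against 27.6 to 34.9%. The median *Mus* share of the 43 cells was 30.7% on chromosome 1, 33.1% on chromosome 14 and up to 50.3% on the other autosomes. On chromosome 1 the 4 wells thus lay near an equal share of the alleles, and the other 43 cells lay far from it. Which of these sets has the unusual copy number of chromosome 1 was not tested. Well C01 further had 1.46 times the median share on chromosome 8, and well B04 0.649 times on chromosome 12, where its *Mus* share was 7.18% against 30.0 to 46.2% in the other 43 cells. The members lie on chromosomes 3, 4, 7, 11, 15 and 17, and 0 of them lie on chromosomes 1, 8 or 12. The chromosomes that hold members had shares of 1.02 to 1.09 times the median in B04, 0.947 to 1.11 in B01, 0.950 to 1.07 in C01 and 0.936 to 1.17 in G04. By share of counts a well lay just outside the other 43 cells on 2 of them, namely G04 on chromosome 3, which holds *Zmat3* (1.17 against 0.874 to 1.15), and B01 on chromosome 15, which holds *Rrm2b* (1.09 against 0.7504 to 1.08, with a *Mus* share of 37.99% against 38.4 to 51.9%). By *Mus* share B01 also lay just outside on chromosome 4, which holds *Sesn2* and *Trp53inp1* (43.6% against 35.99 to 43.4%).

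**Figure D2:**
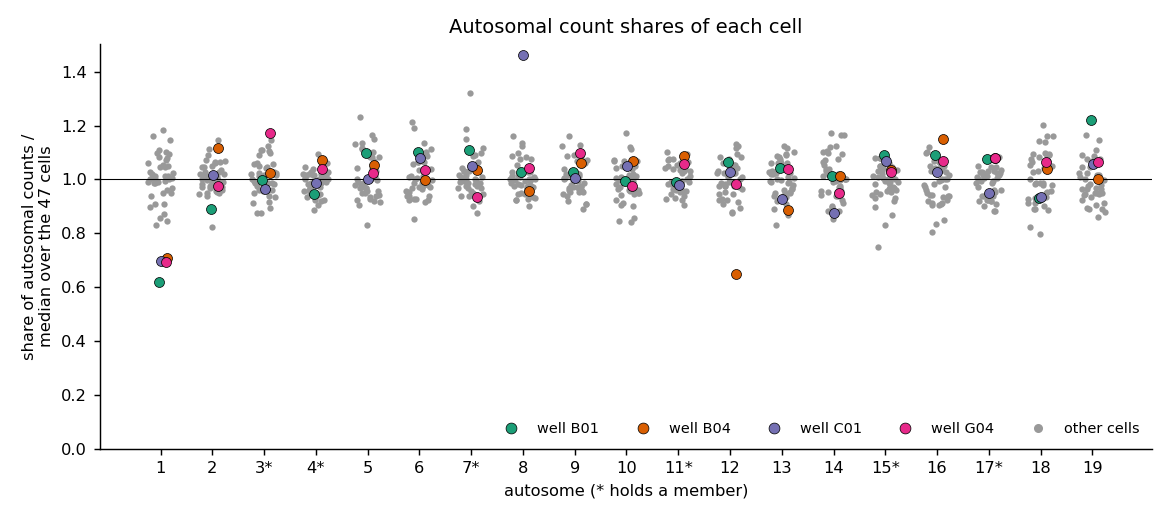
Share of each autosome in the autosomal counts of a cell, divided by the median over the 47 cells (y axis), for each autosome (x axis, an asterisk marks those that hold a member). Grey points are the other 43 cells. The 4 coloured wells lie at 0.618 to 0.708 on chromosome 1, C01 lies at 1.46 on chromosome 8 and B04 at 0.649 on chromosome 12, none of which holds a member.

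Well B04, an XO-Cast cell, had the highest level of all 47 cells for 3 targets. *Cdkn1a* reached 23.7 there (479 counts, interval 21.6 to 25.9), 3.54 times the median of the other 43 cells, although B03 lay at the same level. *Sesn2* reached 5.44 (110 counts, 4.47 to 6.56), 11.8 times the median of 0.463, and above the highest other cell at 3.97. *Aen* reached 6.53 (132 counts, 5.47 to 7.75), 5.57 times the median of 1.17, with the highest other cell at 5.30. *Ccng1* and *Bax* were each at rank 3 of 47, at 3.26 and 1.73 times the median. *Zmat3*, at 11 counts, was 2.14 times the median, and *Trp53inp1* was at 0.841 where the median of the other cells was 0. *Trp53* itself was at rank 42 of 47, at 2.28 (46 counts, 1.67 to 3.04), 0.630 times the median.

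In B04, 5 of the 7 members with a median above 0 were thus at least 2-fold higher than the median of the other cells and 0 were 2-fold lower. Of the 3717 genes tested in the same way, 22.1% were 2-fold higher and 29.6% were 2-fold lower in this cell. The other 43 cells had 0 to 5 such members with a median of 1, and well H01, an XX cell that was not among the 4 wells, also had 5. The sum of the 8 targets was 57.6 in B04, and 7.55 to 46.8 in the other 43 cells. B04 held 202060 allelic counts, at rank 3 of 47, with 24.9% of them mitochondrial, at rank 11. Of 8 fibroblast markers in the table, 7 were at 0 in B04 and their summed level was 0.099, against 0 to 9.14 in the other 43 cells. The 4 primitive endoderm markers and the 6 trophoblast markers in the table were all at 0 in B04. Its summed pluripotency markers were at 34.2, rank 36 of 47, beside a median of 42.95 in the other 43 cells, and over the 47 cells their sum had a rho of -0.27 with the summed targets. The part of these measures was not tested.

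Of the 13 further listed targets with a median above 0, 6 were at least 2-fold higher in B04 and 2 were lower, beside 22.1% and 29.6% of all genes in this cell. *Abhd4* was 8.88 times the median, *Gtse1*, a mitotic regulator that binds p53, 8.50 times, and *Ckap2* 5.24 times, and each was at its highest of all cells there. *Epha2* (7.40 times), *Dyrk3* (4.44 times) and *Phlda3* (2.35 times), an inhibitor of AKT, made up the rest. The 6 genes were taken by the 2-fold limit after their values were seen. Among the regulators, 2 of 7 were higher and 2 lower, near the shares over all genes.

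The 3 other wells are described beside the same shares over all genes. In B01, 2 of 7 members were 2-fold higher (*Zmat3* and *Sesn2*, with 17 and 13 counts) and 2 lower (*Cdkn1a* at 0.320 times and *Aen* at 0), beside 26.6% and 35.9% of all genes. In C01, 2 members were higher and 0 lower (24.4% and 30% of all genes). They were *Zmat3* at 7.56 times and *Sesn2* at 2.13 times the median. *Bax* was at its highest of the 47 cells in C01, at 18.3, which is 1.91 times the median. In G04, 0 members were higher and 3 were lower (19.3% and 19.9% of all genes), namely *Cdkn1a* at 0.411 times, *Ccng1* at 0.296 times and *Zmat3* with 0 counts. *Trp53* was at 0.756, 1.09 and 1.09 times the median in B01, C01 and G04. Of the 13 further targets, 5 were 2-fold higher and 6 lower in B01, 4 and 5 in C01, and 0 and 7 in G04, to be read against the shares over all genes just given for each well. Of the 7 regulators, 1 was higher and 5 lower in B01, 1 and 4 in C01, and 1 and 1 in G04, beside the same shares. These wells also differed in other measures, whose part was not tested. B01 had 9.47% mitochondrial counts (rank 46 of 47), 4132 detected genes (rank 44) and a fibroblast sum of 4.504 (rank 5). C01 had a pluripotency sum of 27.7 (rank 43) and a fibroblast sum of 4.05 (rank 6). G04 lay at ranks 23, 11 and 35 for mitochondrial share, pluripotency sum and fibroblast sum.

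As a mean, the 4 wells had 0 of 8 members 2-fold above and 0 of 8 2-fold below the mean of the other 43 cells, where 8.43% and 15% of all tested genes were. The values nearest to 2-fold were *Sesn2* at 1.98, *Aen* at 1.82 and *Zmat3* at 1.69. Without B04 the ratio of *Sesn2* was 0.904, that of *Aen* 0.919, that of *Cdkn1a* moved from 1.06 to 0.440 and that of *Trp53inp1* from 1.01 to 0.419. Without B04, 0 of 8 members were thus 2-fold above and 2 of 8 2-fold below, beside 10.4% and 18.9% of all tested genes. The high mean of *Sesn2* and *Aen* was thus that of B04. Without C01 the ratio of *Zmat3* was 1.09. *Rrm2b* had 0 counts in the 4 wells together, and 0.0869 per 10000 in the other 43 cells pooled, of which 28 also had 0 counts. The Poisson limit for the 4 wells was 0.0529. It is too narrow for counts that reached 10 in a single cell, and nothing is read from it.

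Over cells, the levels of several targets were correlated with each other. Among the 28 pairs of the 8 members past the filter, Spearman's rho over the 47 cells had a median of 0.18 (-0.22 to 0.53), and 9 pairs were above 0.3. Of all pairs of tested genes 2.87% were above 0.3, and their median rho was 0.01. The cells share 1 plate, 1 library preparation and a common range of depth, and the members' own rho with depth lay between -0.16 and 0.22. *Cdkn1a* had a rho of 0.53 with *Bax*, 0.46 with *Ccng1*, 0.38 with *Sesn2* and 0.30 with *Aen*, and without B04 these were 0.50, 0.43, 0.34 and 0.26. Ranked over the tested genes by likeness to *Cdkn1a*, the nearest were *Bax*, *Phlda3* (0.52) and *Atp6v1g1* (0.49), a subunit of the vacuolar proton pump. *Ccng1* stood at rank 8, *Sesn2* at rank 27 and *Aen* at rank 109, while *Zmat3* was at rank 727 (0.14) and *Trp53inp1* at rank 1183 (0.08).

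Among the 18 further targets, 3 had a rho above 0.3 with *Cdkn1a*, namely *Phlda3* (0.52), *Ei24* (0.40) and *Rps27l* (0.37), and 16 were above 0. Over all tested genes 2.75% were above 0.3 and 48.2% above 0 with *Cdkn1a*. The rho of *Trp53* with the 7 target members past the filter ran from -0.22 (*Ccng1*) to 0.13 (*Zmat3*), and with the sum of the 8 targets it was -0.16. It was above 0 for 1 of these 7, beside 57.6% of all tested genes, and -0.002 for *Aen*, which is no correlation. Ranked by likeness to *Trp53*, *Ccng1* stood at rank 3826 and *Cdkn1a* at rank 3589 of 4033. Within the 23 XX cells the rho ran from -0.33 (*Trp53inp1*) to 0.13 (*Aen*), with -0.09 for *Cdkn1a* and -0.15 for *Zmat3*, and it was -0.23 with the sum. The genes most like *Trp53* were *Tpgs2* (0.57), *Smarca4* (0.55), the ATPase of the BAF remodelling complex, and *Rpp40* (0.50), a subunit of RNase P.

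**Figure D3:**
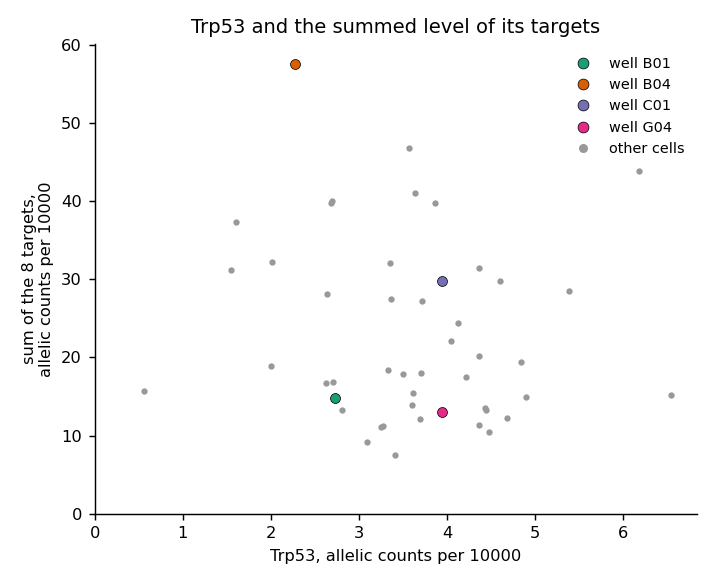
Level of *Trp53* (x axis) and summed level of the 8 targets (y axis), both in allelic counts per 10000, with 1 point per cell. B04 has the highest sum (57.6) at a *Trp53* level of 2.28, and over the 47 cells rho was -0.16. *Cdkn1a* and *Bax* made up a median of 78.2% of the sum.

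Over all cells the median *Mus* share of a tested gene was 45.9%. *Bax* (57.4%, 56.3 to 58.6), *Cdkn1a* (54.8%, 53.6 to 56.1) and *Sesn2* (54.9%, 51.6 to 58.2) lay above it. *Trp53* (37.7%, 35.9 to 39.5), *Ccng1* (38.7%, 35.8 to 41.7), *Zmat3* (37.9%, 33.5 to 42.5) and *Trp53inp1* (34.2%, 28.2 to 40.5) lay below it, and so did *Aen* at 13.1% (11.2 to 15.1). The value of *Zmat3* rested on well A03, with 108 *Cast* and 5 *Mus* counts, and was 48.8% (43.5 to 54.2) without that cell. For *Trp53* 37 of 46 cells with at least 10 counts had less *Mus* than *Cast*, and for *Bax* 40 of 47 cells had more *Mus* than *Cast*. For *Cdkn1a* and *Sesn2* the cells were split evenly, with 23 above and 21 below an equal share for *Cdkn1a* and 12 and 12 for *Sesn2*, and medians over cells of 50.5% and 49.7%. The pooled share of *Cdkn1a* was 50.9% in XX cells, and that of *Sesn2* was 52.0% (48.3 to 55.6) without the 4 wells.

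*Aen* stood out by its *Cast* bias. Only 7.61% of tested genes had a *Mus* share as low or lower, and *Bax*, on the same chromosome 7, had the opposite bias. The share was 6.63% in XX cells (4.69 to 9.06), 11.7% in XO-Cast cells (8.54 to 15.6) and 25.1% in XO-Mus cells (20.5 to 30.1). Among XO-Mus cells, well D01 alone held 45 of the 83 *Mus* counts. Whether mapping to one strain's allele was easier than to the other was not tested.

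**Figure D4:**
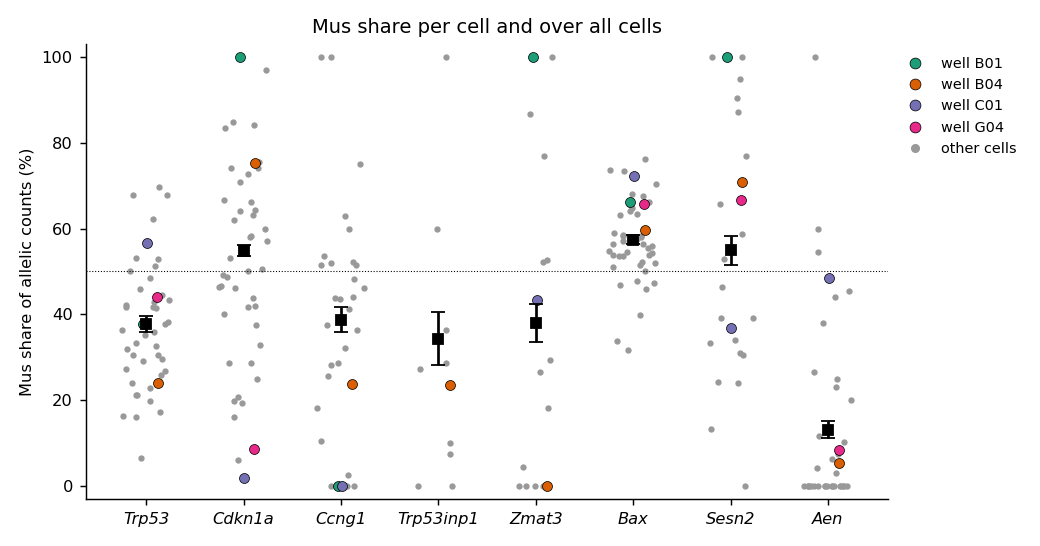
*Mus* share of allelic counts in percent (y axis) for 8 members. Points are cells with at least 10 counts of the gene, squares with bars are the share over all cells with its 95% Clopper-Pearson interval, and the dotted line is an equal share. *Aen* lies at 13.1% with many cells at 0, and the cells of *Bax* and *Trp53* stay between the extremes.

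Expression from a single allele was also counted. A cell with at least 10 counts of a gene and none of one allele was counted as a 1-allele cell. There were 0 of 46 such cells for *Trp53*, 0 of 47 for *Bax* and 1 of 45 for *Cdkn1a*. There were 4 of 24 for *Sesn2*, 8 of 32 for *Ccng1*, 3 of 10 for *Trp53inp1*, 7 of 16 for *Zmat3* and 19 of 37 for *Aen*, of which 18 showed *Cast* only. Over the 8 members 42 of 257 pairs of gene and cell showed 1 allele (16.3%, 12.04 to 21.4). Over all tested genes 22.8% of such pairs did. Whether a cell shows 1 allele depends on the gene's counts and on its *Mus* share, and the tested genes were matched for neither. *Bax*, *Cdkn1a* and *Trp53* had means of 160, 133 and 59.9 counts per cell. *Aen*, with its 18 *Cast*-only cells, had a *Mus* share of 13.1%. The shares of 16.3% and 22.8% are therefore not a result about the members.

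Single cells could have nearly all *Cdkn1a* counts from 1 allele, in and outside the 4 wells. Of the *Cdkn1a* counts in B01, 29 of 29 were *Mus*, while in C01 110 of 112 were *Cast*, and in well C05 126 of 130 were *Mus*. At most 10% of counts came from the lesser allele in 5 of 45 cells, and in 2 of 41 without the 4 wells. The *Mus* share of all chromosome 17 counts was 40.7% in B01 and 42.9% in C01, so both alleles of the chromosome were expressed. In B04 361 of the 479 *Cdkn1a* counts were *Mus* (75.4%), 78 of 110 for *Sesn2* and 7 of 132 for *Aen*.

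The *Cast* and *Mus* levels of *Cdkn1a* were correlated across cells, with a rho of 0.56 over 47 cells and 0.71 within the 23 XX cells. For *Sesn2* it was 0.59 over 47 cells and 0.64 within XX cells, for *Ccng1* 0.37 and 0.63, and for *Bax* 0.54 and 0.29. *Trp53* had a rho of 0.03 and 0.23, and *Aen* of 0.16 and 0.27, so that *Bax*, *Trp53* and *Aen* lay close together within XX cells. The median over 3072 genes with enough counts of both alleles was 0.21 in either set of cells, and over 47 cells 4.13% of these genes had a higher rho than *Cdkn1a*, 3.06% than *Sesn2* and 84.9% than *Trp53*. The counts of both alleles were divided by the same total, which a cell's depth and composition enter.

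**Figure D5:**
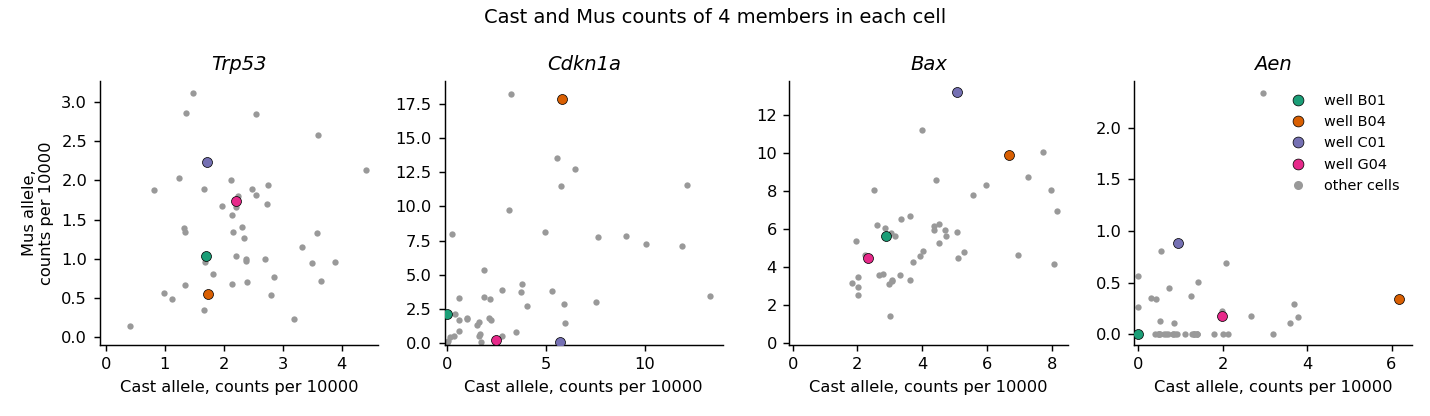
*Cast* level (x axis) and *Mus* level (y axis) of 4 members, in counts per 10000 with 1 point per cell and axes that differ by panel. Over the 47 cells rho was 0.56 for *Cdkn1a*, 0.54 for *Bax* and 0.03 for *Trp53*, and most cells of *Aen* lie near the *Cast* axis.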

How the data were processed

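The deposited table holds raw allelic counts per gene and cell, made by the authors before deposit and neither normalized nor pooled over cells. Per the study's methods for its plate-based libraries, reads were aligned with STAR 2.5.3a to an mm10 genome masked at strain SNPs, split by allele with SNPsplit and SAMtools, and counted at SNP positions of genes with at least 4 SNPs. No separate account of the alignment and allelic counting of this plate was found. The X class was set from the alleles of X-linked genes (limits of 0.15 and 0.85) and equals that in the column names in 47 of 47 cells.

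Counts of both alleles were divided by the cell's total and multiplied by 10000. Genes were placed by GENCODE M21 (13945 genes) or RefSeq (1 gene), and 1 gene was not placed. Ratios were taken between means of classes, over autosomal genes whose mean reached 5 counts per cell. The wells were compared with the median of the other 43 cells where it was above 0. Correlations are Spearman's rho.

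The members and lists were chosen with earlier results of these data known. All members are named, and of the other pathway genes the 3 highest and 3 lowest log2 ratios per class comparison. Alternatives were median-of-ratios size factors, an autosomal denominator without chromosomes 1, 8 and 11, means of log-normalized values, medians, other filters, 1.5-fold, each allele alone, thinning to 100000 counts, and leaving out shallow cells, the 4 wells or the highest cells. The ratio was tested on simulated counts. Python 3.11.15 was used with numpy 2.4.6, pandas 2.3.3, scipy 1.17.1 and matplotlib 3.10.9.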

Additional observations from a re-analysis of the deposited data

Results flagged for a closer look

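Groups of 4 to 10 cells were searched for a cell whose gap to the nearest of the others, over the range of the group, exceeds Dixon's 95% critical value. Of 19 groups 3 had such a cell. The limit is set for independent normal values, of which about 1 in 20 groups would pass. Counts of single cells, some of them mostly 0, are not such values, and groups share cells. The 3 groups are therefore not set against chance. Among wells B01, B04, C01 and G04, Cdkn1a in B04 was at 23.7 counts per 10000 and 2.14 to 5.82 in the others, with a gap that only just passed the limit, and Sesn2 in B04 was at 5.44 and 0.897 to 0.987 in the others. Among the 9 XO-Mus cells, Rrm2b was at 0.603 in well G02, on 9 counts, and at 0 in the other 8, so that any count in that cell would have met the limit and nothing is read from it.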

How the results depend on the processing

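Both X class ratios of the summed targets stayed within 1.5-fold under every alternative run. The log2 ratio of XO-Cast cells was -0.18, and it was -0.12 with median-of-ratios size factors, -0.39 for medians, -0.40 without the 4 wells, -0.32 without the highest cells and -0.047 as a mean over members of log-normalized values. For XO-Mus cells it was -0.04, and -0.14 with the denominator without chromosomes 1, 8 and 11, -0.17 for Cast alone, 0.068 for Mus alone, -0.49 for medians, 0.013 without the cell under 100000 counts, -0.18 without the highest cells and 0.057 as a mean of log-normalized values, so its sign depended on the setting. The number of members past 2-fold, 0 for both classes, became 2 for medians in both, where members with a median of 0 in either class were left out. For XO-Cast cells it also became 1 with size factors, 2 for Cast alone, 1 for Mus alone, 1 without the highest cells and 2 at 1.5-fold. For XO-Mus cells it became 2 for Mus alone, 1 for log-normalized means, 1 without the cell under 100000 counts, 1 without the 4 wells and 1 at 1.5-fold. Lower filters on counts left it at 0. Except for medians and 1.5-fold, shares over all tested genes were not computed under these alternatives, so these counts are not a result about the members.

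In B04, the 5 members 2-fold higher became 2 for Mus alone, with 1 lower, and its rank by the summed targets went from 1 to 2 for Cast alone. It stayed at 1 without Cdkn1a, which was added after the data were seen. In B01 the 2 higher members became 1 for either allele alone and the 2 lower ones 1 for Mus alone. In C01 the 2 higher became 1 against cells of its own class, and the 0 lower became 2 for Mus alone. In G04 the 0 higher became 1 against its own class, 2 for Cast alone and 1 for Mus alone, and the 3 lower became 1 for Cast alone. In the mean of the 4 wells, 0 members were 2-fold higher, 1 with size factors and 0 to 2 with each well left out, and the 0 lower became 2 without B04, which was added after the data were seen. The 16.3% of 1-allele pairs became 23.0% when the minor allele could reach 10% and 7.21% at 20 counts. Apart from the mean of the wells without B04, shares over all tested genes were not computed for the alternatives in this paragraph. The causes were not tested. For single members 60 of 215 alternative values moved beyond counting error or by over 1.5 times. Signs of small ratios changed: the log2 ratio of Zmat3 in XO-Mus cells ran from -0.61 to 1.18, and that of Bax there, 0.03, kept its sign in 4 of 9 settings. No paired analysis was possible because the labels put all cells in 1 group with no shared replicate numbers and no comparison between groups was tested.

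The depth limits the low members. Zmat3, Trp53inp1 and Rrm2b had medians of 0 to 4 counts per cell, so their ratios rest on few cells. Each well is 1 cell, and the number of informative SNPs per gene was not known.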
